A study of Homo sapiens with 6 samples.

Results

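The Notch pathway loci HES1, LFNG, JAG1, JAG2, NOTCH1, NOTCH2 and NOTCH3 were examined in 3 peak lists from chromatin immunoprecipitation followed by sequencing (ChIP-seq). A peak was a member when its midpoint lay within 50 kb of the hg19 span of a gene, or within 150 kb for HES1. This gave 78 of 74158 listed peaks, namely 16 of 1510 KLF5 peaks in Calu-3, 5 of 3262 KLF5 peaks in 16HBE14o- and 57 of 69386 CEBPB peaks in Calu-3. HES1 and LFNG were chosen by the signal of their peaks, which are the 3 highest of the Calu-3 KLF5 list, so the signals and peak numbers there are a description and were not tested.

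Both lines are labelled as human bronchial epithelial. Calu-3 derives from a lung cancer (adenocarcinoma), whereas 16HBE14o- cells were immortalised in culture. All cells were untreated and grown in DMEM with fetal bovine serum. KLF5 in Calu-3 (2 samples) was precipitated with a published rabbit antibody in replicate 1 and a commercial Santa Cruz antibody in replicate 2. KLF5 in 16HBE14o- (2 samples) was precipitated with the same Santa Cruz antibody, and CEBPB in Calu-3 (2 samples) with another. Antibody and cell line cannot be told apart in the comparison of the KLF5 lists. Each list combined both samples of its group, per the series' design text, so no value below has an error between samples and none was tested. The sequencing depth is unknown. No label says if replicates were separate cultures, and peak lists hold no expression by which to check the identity of the cells.

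Notch signalling passes between neighbouring cells. Jagged ligands such as JAG1 and JAG2 on a cell surface bind NOTCH receptors on the adjacent cell, the receptor is cleaved, and its intracellular domain joins the DNA-binding protein RBPJ to activate targets, of which HES1 is the classical example. HES1 is a basic helix-loop-helix repressor. LFNG is a Golgi glycosyltransferase that adds N-acetylglucosamine to fucose on NOTCH receptors and thereby changes their response to different ligands. In the airway epithelium Notch activity favours secretory over ciliated cells. KLF5 is a Krüppel-like zinc finger factor that binds GC-rich and CACCC-type sites, and CEBPB is a basic leucine zipper factor.

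Promoter sequences are given for HES1 and NOTCH1, since these were the members with a KLF5 peak within 1 kb of the 5′ bound of their span. They cover 250 bases before to 50 after the gene start, from RefSeq on GRCh38.p14, at chr3:194135898-194136197 on the plus strand and chr9:136545999-136546298 on the minus strand. Peak positions are on hg19 and were not converted, so the place of a peak within these windows is not given. Capitals mark matches, on either strand, to the KLF motif CCNCNCCC, the GC box GGGCGG and the RBPJ motif GTGGGAA.
HES1 promoter: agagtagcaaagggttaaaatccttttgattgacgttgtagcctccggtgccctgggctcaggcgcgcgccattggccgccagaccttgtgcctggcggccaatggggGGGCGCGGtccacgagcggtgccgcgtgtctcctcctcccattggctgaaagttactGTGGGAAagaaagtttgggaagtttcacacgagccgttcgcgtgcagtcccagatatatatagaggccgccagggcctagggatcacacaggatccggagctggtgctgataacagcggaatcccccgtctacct
NOTCH1 promoter: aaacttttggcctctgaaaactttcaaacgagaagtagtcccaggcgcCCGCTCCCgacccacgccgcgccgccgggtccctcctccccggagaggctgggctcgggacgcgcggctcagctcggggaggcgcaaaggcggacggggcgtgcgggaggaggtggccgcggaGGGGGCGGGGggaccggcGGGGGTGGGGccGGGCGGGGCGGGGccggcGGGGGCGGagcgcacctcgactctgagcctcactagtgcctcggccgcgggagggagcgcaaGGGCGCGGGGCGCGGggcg

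The HES1 window held 1 KLF match, at bases 109 to 116, and 1 RBPJ match, at bases 166 to 172. It held 0 GC boxes. The NOTCH1 window held 10 KLF matches and 4 GC boxes, each of which overlapped a KLF match, and 0 RBPJ matches. Many of the 10 KLF matches also overlapped each other, and the window was 77.0% G or C. Of all 35116 RefSeq promoter windows, 56.2% had a KLF match, 45.0% a GC box and 6.25% an RBPJ match, so the KLF match at HES1 is a common feature. Among the 8 promoter windows of the 7 genes (LFNG has 2), the RBPJ motif was found at HES1 alone. The KLF motif was found in all but the second LFNG window, with 6 matches at NOTCH3, 5 at JAG2, 3 at JAG1 and 1 at NOTCH2. Some matches at NOTCH3 and JAG2 overlapped each other, in windows of 78.3% and 79.7% G or C. The CEBP motif TTGCNNAA, present in 10.5% of all windows, was in none of the 8. The N box CACNAG, to which HES proteins bind, is in 38.0% of all windows and had 4 matches at HES1. A match describes the letters of the window and does not mark a bound site.

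HES1 had many KLF5 peaks in Calu-3, most of them of high signal, and 1 in 16HBE14o-. Its window, chr3:193704000-194007000, held 11 Calu-3 KLF5 peaks (0.728% of the list, exact 95% confidence interval 0.364 to 1.30), 1 16HBE14o- KLF5 peak (0.0307%, 0.000776 to 0.171) and 15 CEBPB peaks (0.0216%, 0.0121 to 0.0357). These intervals cover counting error only. They treat listed peaks as independent, although 6 of the 11 Calu-3 KLF5 peaks lay within 7300 bp. HES1 was also chosen by the signal of its peaks in this list, so no inference is drawn from the intervals. When the genome was divided into 9894 tiles as wide as this window (303 kb), 3 tiles (0.0303%) had 11 or more Calu-3 KLF5 peaks. A 16HBE14o- KLF5 peak was present in 17.2% of tiles, and 15 or more CEBPB peaks in 8.78%. Ranks below are percentiles of the authors' signal within a list, with 100 for the highest peak.

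The strongest Calu-3 KLF5 peak of the whole list lay at chr3:193852569-193852984, with a signal of 240, 1.2 kb upstream of the 5′ bound of HES1. The third strongest lay at chr3:193853697-193853880, with a signal of 176, 0.2 kb upstream of that bound. The bounds are rounded to 1 kb, so both peaks lie at or near the promoter. The fourth peak of the list had a signal of 112, and the median Calu-3 KLF5 peak had 27.2. In 16HBE14o- the promoter peak was chr3:193853706-193854049 with a signal of 26.5, at percentile 30.2 of its list, where the median signal was 30.1. It shared 175 bp with the Calu-3 peak at percentile 99.9, and the summits were 85 bp apart. The peak of signal 240 overlapped no 16HBE14o- KLF5 peak. With a gap of up to 1 kb allowed, it was paired with this promoter peak, and 3 of 16 Calu-3 members had a 16HBE14o- peak.

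The promoter-proximal peaks formed a group of 6 within 7300 bp, from chr3:193852227 to 193859526. The other 4 were at 193852227-193852300 (percentile 96.1, upstream), 193855439-193855718 (82.8, inside the span), 193858525-193858804 (44.9, downstream) and 193859441-193859526 (97.2, downstream). When Calu-3 KLF5 peaks with midpoints no more than 5 kb apart were joined, 2 of 1362 groups (0.147%) had 6 or more peaks, the HES1 group being 1 of them. The only 16HBE14o- KLF5 peak in the HES1 window stood alone, and the next one outside the window was 308 kb from the span.

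Upstream of HES1 were 5 more Calu-3 KLF5 peaks, and 3 of them had signals below those of 240 and 176 at the promoter but above those of the other 4 peaks in the promoter group, which ran from 26.2 to 62.5. A pair lay 133.0 and 132.4 kb upstream, at chr3:193720896-193721175 (signal 104, percentile 99.5) and chr3:193721528-193721597 (signal 101, percentile 99.3). The third, 65.0 kb upstream at chr3:193788901-193789180, had a signal of 81.9 (percentile 98.5). The remaining peaks were weaker, at percentile 42.5 for chr3:193807490-193807769 (46.4 kb upstream) and 23.5 for chr3:193830417-193830696 (23.4 kb upstream). Beyond the promoter group, no Calu-3 KLF5 peak was listed downstream in the window, and the nearest outside it, at percentile 30.1, was 161 kb from the span. In the RefSeq gene order the nearest protein-coding neighbours of HES1 are LOC102724877 and OPA1 on the upstream side and CPN2 and LRRC15 on the downstream side. A peak in the window is therefore near HES1 but is not assigned to it.

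**Figure D1:**
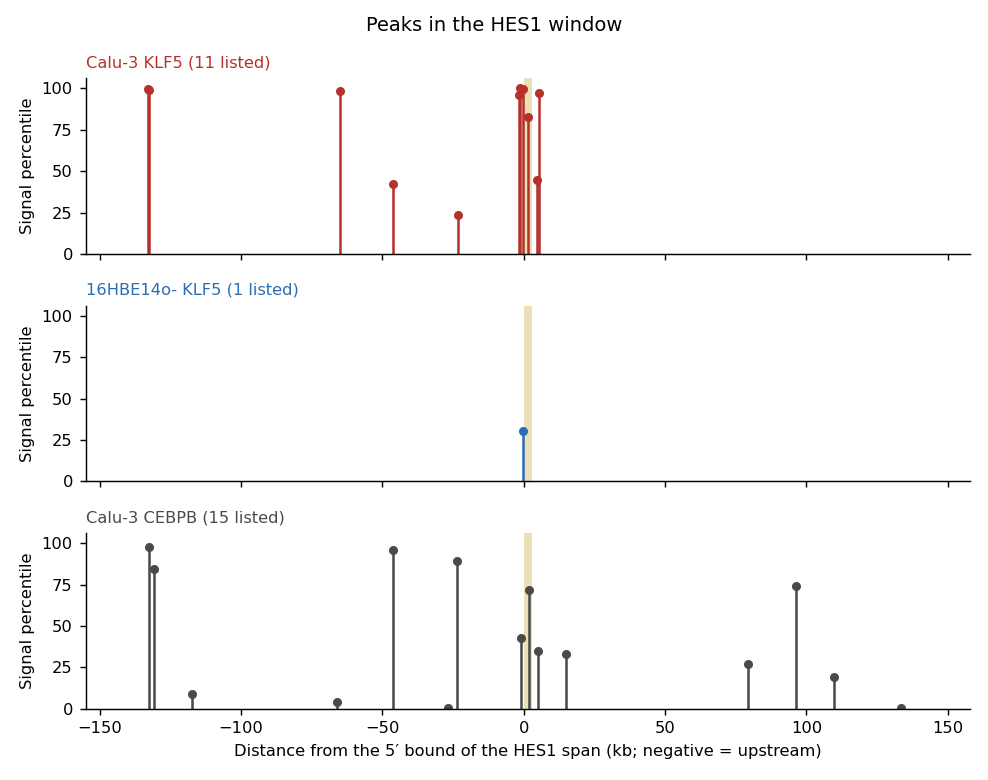
Signal percentile within each list (vertical axis) of every peak in the HES1 window against its distance in kb from the 5′ bound of the HES1 span (shaded). Calu-3 KLF5 has 11 peaks, none more than 2.5 kb past the 3′ bound, 16HBE14o- KLF5 has 1 peak at percentile 30.2, and CEBPB has 15 peaks on both sides.

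CEBPB lay over some of these KLF5 peaks but was not ranked highest at the promoter. Of the 16 Calu-3 KLF5 peaks of all loci, 5 overlapped a CEBPB peak by at least 1 bp, compared with 43.7% of all Calu-3 KLF5 peaks, and all 5 were at HES1 (5 of its 11). At the strongest KLF5 peak, the CEBPB peak chr3:193852838-193853044 was at percentile 42.6 and its summit was 103 bp away. Inside the span, the CEBPB peak chr3:193855568-193855786 was at percentile 71.6, over the KLF5 peak at percentile 82.8. No CEBPB peak overlapped the KLF5 peak next to the 5′ bound (percentile 99.9), the nearest being 652 bp away.

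The stronger CEBPB peaks were upstream. The highest of the window, chr3:193721394-193721688, had a signal of 11.5 (percentile 97.9) and covered the KLF5 peak 132.4 kb upstream, with summits 2 bp apart. The next, chr3:193807348-193807755 at percentile 95.7 and chr3:193830277-193830506 at percentile 89.2, overlapped the weakest KLF5 peaks of the locus, those at percentiles 42.5 and 23.5. The overlap was 266 bp, with summits 83 bp apart, at the first and 90 bp, with summits 176 bp apart, at the second, which no longer counted as an overlap when 50% of the shorter peak was required. Thus, by percentile within each list, 1 upstream site ranked high for both factors, and 2 upstream sites ranked high for CEBPB and below the median for KLF5. The strongest KLF5 peak ranked below the median for CEBPB. The lists hold 1510 KLF5 and 69386 CEBPB peaks, so equal percentiles are not equal ranks. At the 2 sites the CEBPB peaks were at ranks 2968 and 7464, and the KLF5 peaks at ranks 869 and 1156. The q-value was at most 0.05 for 10 of the 15 CEBPB peaks and for 46.3% of the CEBPB list.

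**Figure D2:**
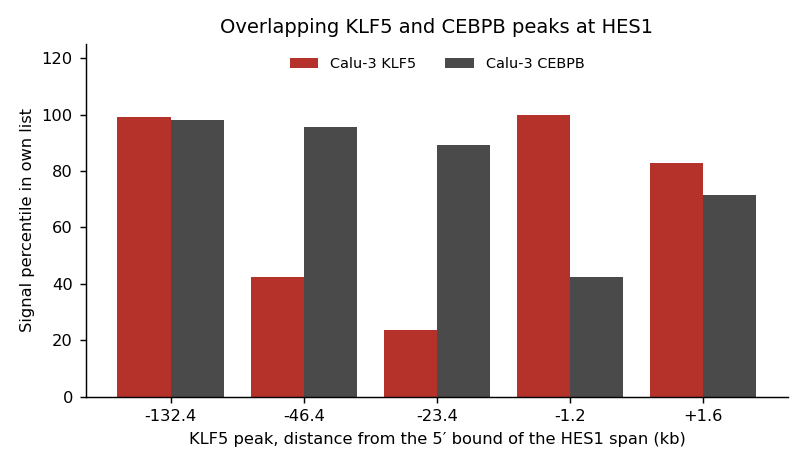
Signal percentiles of the 5 overlapping pairs of Calu-3 KLF5 and CEBPB peaks at HES1, each within its own list, ordered by distance in kb from the 5′ bound of the span. The lists hold 1510 KLF5 and 69386 CEBPB peaks, so equal percentiles are not equal ranks. KLF5 ranked 100 and CEBPB 42.6 at the site 1.2 kb upstream, whereas KLF5 ranked 23.5 and CEBPB 89.2 at the site 23.4 kb upstream.

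HES1 lies in the distal long arm of chromosome 3, a region picked with earlier results of these data known. It held a larger share of the Calu-3 KLF5 list than of the 16HBE14o- KLF5 and CEBPB lists. Its share of the genome was not measured. Beyond 150 Mb were 155 Calu-3 KLF5 peaks (10.3% of the list), 26 16HBE14o- KLF5 peaks (0.797%) and 2416 CEBPB peaks (3.48%). The 11 HES1 peaks had a median percentile of 97.2, and the remaining Calu-3 KLF5 peaks of this region had one of 24.4. Of the 11 peaks in the region above percentile 95, 7 were in the HES1 window. Because HES1 was chosen by the signal of its peaks in this list, these values are a description and no difference is inferred. The part that the density of the region plays in the number of peaks at HES1 was not tested.

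LFNG had KLF5 peaks in Calu-3, among them the second strongest of the list, and none in 16HBE14o-. Its window, chr7:2502000-2619000, held 4 Calu-3 KLF5 peaks, 0 16HBE14o- KLF5 peaks and 4 CEBPB peaks. Of 25606 tiles of this width (117 kb), 32 (0.125%) had 4 or more Calu-3 KLF5 peaks. A tile of that width with no 16HBE14o- KLF5 peak was common, at 91.7%. Of the 4 Calu-3 KLF5 peaks, 0 overlapped a CEBPB peak, compared with 43.7% of all Calu-3 KLF5 peaks. Likewise 0 overlapped a 16HBE14o- KLF5 peak, compared with 23.6%. With 4 peaks such counts cannot size a difference.

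The second strongest Calu-3 KLF5 peak of the list, chr7:2563873-2564091 with a signal of 178, lay inside the LFNG span, 12.0 kb from its 5′ bound. Beside it, chr7:2563117-2563396 was at percentile 71.5. A peak 0.6 kb past the 3′ bound, chr7:2569446-2569725, had a signal of 41.6 (percentile 86.8). The last, chr7:2533467-2533746, was 18.4 kb upstream with a signal of 31.8 (percentile 68.5). None was within 5 kb of the 5′ bound, in contrast to HES1, where 5 were. LFNG has a second RefSeq promoter window, and the distance of the peaks from it was not measured on hg19. Whether the peaks in the span are exonic or intronic is not stated, since no hg19 annotation was used here.

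All 4 LFNG peaks were above the median of the Calu-3 list, and 3 of the 4 carried the highest deposited score of 1000, as did 46.0% of that list. At HES1 the highest score was carried by 9 of 11 Calu-3 peaks. Of the 5 16HBE14o- members it was carried by 1, at JAG2, compared with 33.2% of the 16HBE14o- list. The nearest 16HBE14o- KLF5 peak to LFNG, at percentile 13.4, was 103 kb from the span. The CEBPB peaks were of low to middle rank, from percentile 9.64 to 57.3, the highest being chr7:2595050-2595201. The one closest to the strong KLF5 peak, chr7:2561731-2561912, was 1.96 kb from it, at percentile 27.6.

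**Figure D3:**
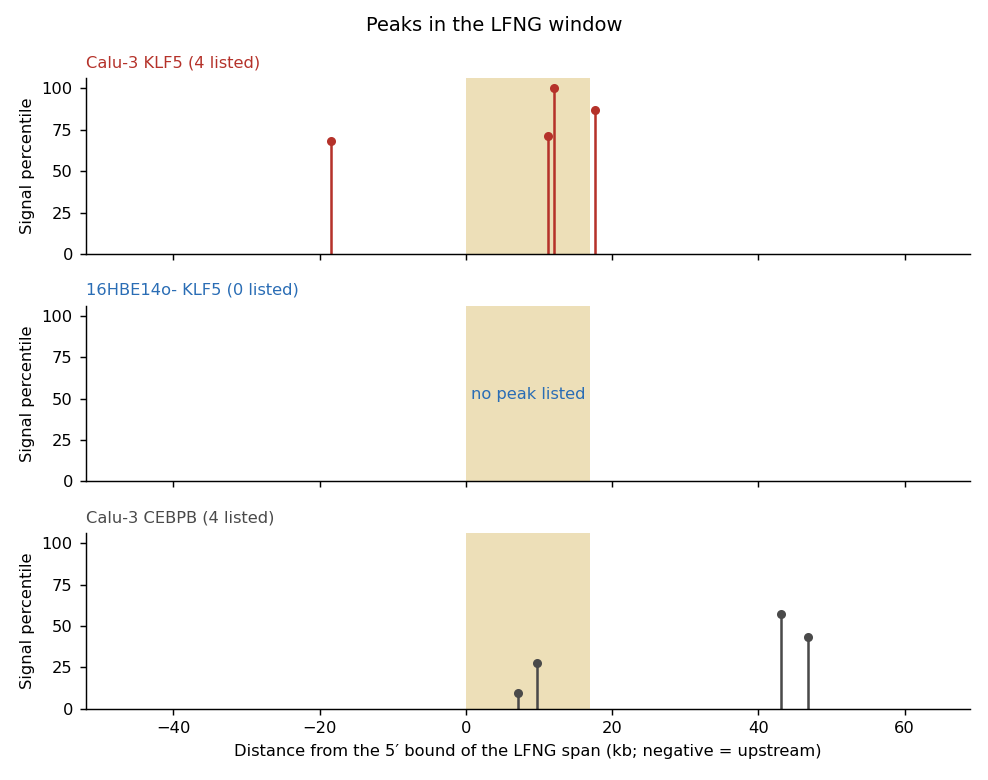
Signal percentile within each list (vertical axis) of every peak in the LFNG window against its distance in kb from the 5′ bound of the LFNG span (shaded). The 4 Calu-3 KLF5 peaks run from percentile 68.5 to 99.9, no 16HBE14o- KLF5 peak was listed, and the 4 CEBPB peaks run from 9.64 to 57.3.

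Some KLF5 peaks of these loci, the 3 strongest among them, had an unusual width. The usual width was 280 bp in the Calu-3 list, and 11 of its 1510 peaks (0.728%) had another. Of these 11, 5 were at HES1 (70, 74, 86, 184 and 416 bp) and 1 at LFNG (219 bp), while the HES1 peaks of signal 104 and 81.9 had the usual width. Every peak of another width was at percentile 96.1 or above in Calu-3, so width and signal are not independent measures. In 16HBE14o- the usual width was 344 bp, 18 peaks (0.552%) had another, and 1 of these, of 91 bp, was in the JAG2 window.

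**Figure D4:**
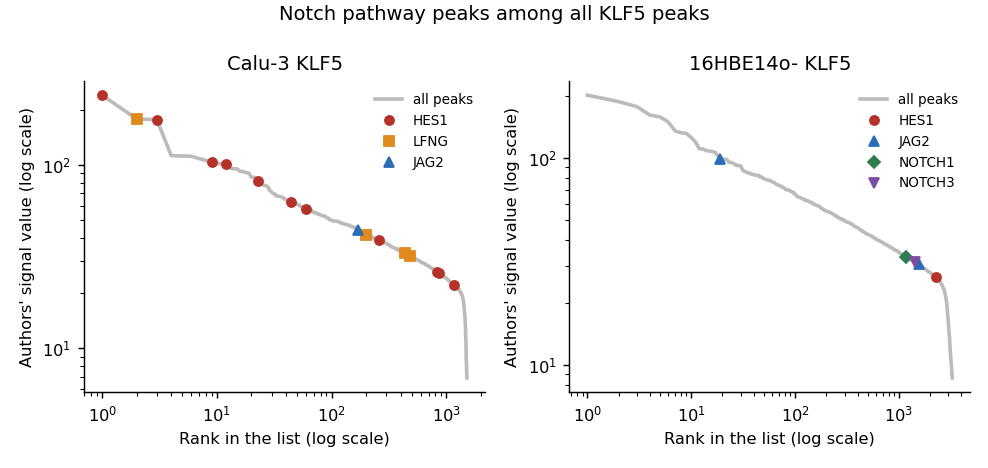
Authors' signal against rank (both log scales) for all peaks of each KLF5 list (grey line) with the Notch pathway peaks marked. HES1 holds ranks 1 and 3 and LFNG rank 2 of 1510 in Calu-3, whereas the highest marked 16HBE14o- peak is JAG2 at rank 19 of 3262.

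Among the ligands, JAG2 had a KLF5 site in both lines, at the far edge of its window. The Calu-3 peak chr14:105557958-105558237 had a signal of 44.4 (percentile 88.9). The 16HBE14o- peak chr14:105558030-105558120 had a signal of 98.8 (percentile 99.4, rank 19). Their summits were 2 bp apart. With the HES1 promoter site, 2 of 16 Calu-3 members overlapped a 16HBE14o- KLF5 peak, compared with 23.6% of all Calu-3 KLF5 peaks, and 2 of 5 16HBE14o- members overlapped a Calu-3 KLF5 peak, compared with 11.3% of that list. The site lies 48.9 kb beyond the 3′ bound of JAG2, and GPR132 is the nearest protein-coding neighbour on that side. It was 1.10 kb inside the edge of the window in Calu-3 and 1.07 kb inside in 16HBE14o-, and another 16HBE14o- peak, at percentile 59.9, was 2.35 kb outside.

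A second 16HBE14o- KLF5 peak, chr14:105585327-105585670 at percentile 52.4, was 21.5 kb beyond the 3′ bound of JAG2 and had no Calu-3 counterpart. A tile as wide as the JAG2 window had 1 or more Calu-3 KLF5 peaks in 5.00% of cases and 2 or more 16HBE14o- KLF5 peaks in 2.72%. No KLF5 peak of either line lay in the JAG2 span. CEBPB was dense there, with 16 peaks in the window and 13 in the span, or 12.4 peaks per 100 kb. Of 23225 tiles of this width, 32 (0.138%) had as many. Within 5 kb of the 5′ bound were 6 CEBPB peaks, at percentiles 2.11 to 82.3, the highest of the window being chr14:105633704-105633846. The q-value was at most 0.05 for 6 of the 16 peaks of the window, compared with 46.3% of the CEBPB list, and none was above percentile 90. The share of tiles counts all listed peaks, whatever their q-value.

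JAG1 had no KLF5 peak in either line. The nearest to its span was 2356 kb away in Calu-3 and 4631 kb away in 16HBE14o-. In tiles of the JAG1 width, 94.8% had no Calu-3 and 90.6% no 16HBE14o- KLF5 peak, so an empty window was the usual case. CEBPB had 6 peaks, 4 of them in the span, a number reached in 18.7% of tiles. The highest, chr20:10585254-10585494 (signal 9.15, percentile 96.5), was 32.6 kb beyond the 3′ bound. Close to the 5′ bound was chr20:10652345-10652534, at percentile 70.2.

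The receptor genes had no Calu-3 KLF5 peak. Such a peak was absent from 94.2% of tiles of the NOTCH1 width, 90.9% of the NOTCH2 width and 94.6% of the NOTCH3 width. An empty window was thus the usual case. In 16HBE14o-, NOTCH1 had a peak at chr9:139440360-139440703 with a signal of 33.3 (percentile 64.0), 0.5 kb inside the 5′ bound and thus at or next to the promoter. NOTCH3 had one at chr19:15306782-15307125 with a signal of 31.5 (percentile 56.6), 5.0 kb inside the 5′ bound. At least 1 16HBE14o- KLF5 peak was found in 10.4% of tiles of the NOTCH1 width and in 9.69% of those of the NOTCH3 width. The nearest Calu-3 KLF5 peaks were 121 kb from the NOTCH1 span and 653 kb from the NOTCH3 span. Another 16HBE14o- peak, at percentile 57.5, was 0.855 kb outside the NOTCH1 window. NOTCH2 had no KLF5 peak in either line, the nearest being 4499 kb away in Calu-3 and 4849 kb away in 16HBE14o-. Of tiles of its width, 84.6% had no 16HBE14o- KLF5 peak.

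No 16HBE14o- KLF5 member overlapped a Calu-3 CEBPB peak (0 of 5), compared with 22.4% of the 16HBE14o- list. With 5 peaks such a count cannot size a difference. At NOTCH1 the nearest CEBPB peak, chr9:139439534-139439658 at percentile 60.0, was 701 bp from the 16HBE14o- KLF5 peak. The NOTCH1 window held 8 CEBPB peaks (reached in 10.5% of tiles), the highest being chr9:139377441-139377633 with a signal of 8.49 (percentile 95.9), 10.5 kb beyond the 3′ bound. NOTCH3 had 6 CEBPB peaks (20.2% of tiles), at percentiles 47.7 to 78.7, the highest being chr19:15288514-15288695 and, with equal signal, chr19:15288808-15288934. NOTCH2 had 2, both beyond the 3′ bound and none in the span, in the widest window after HES1 (259 kb), where 81.1% of tiles had as many. The higher of the pair, chr1:120413675-120413799, was at percentile 67.6.

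Per 100 kb of window, Calu-3 KLF5 had 3.63 peaks at HES1, 3.42 at LFNG and 0.775 at JAG2. The 16HBE14o- KLF5 list had 1.55 at JAG2, 0.704 at NOTCH3, 0.654 at NOTCH1 and 0.330 at HES1. CEBPB ran from 12.4 at JAG2 to 0.772 at NOTCH2, with the other 5 loci between 3.42 and 5.23. The HES1 window has a flank of 150 kb and the others 50 kb, while 6 of its 11 Calu-3 KLF5 peaks lay within 7300 bp. The HES1 values are thus spread over a longer flank and cannot be set against those of the other loci. The 16HBE14o- values rest on 1 or 2 peaks each. No order of the loci is read from these values. The 651 CEBPB peaks with a Calu-3 KLF5 peak were 0.938% of the CEBPB list, and 5 of the 57 CEBPB members were among them. All 5 were at HES1, which was chosen by the signal of its Calu-3 KLF5 peaks, so no enrichment is read from this count.

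**Figure D5:**
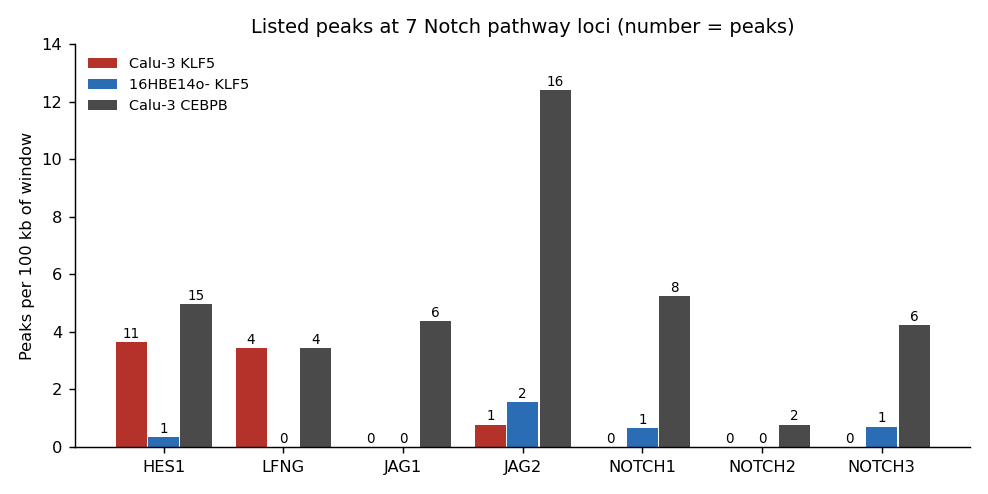
Listed peaks per 100 kb of window at the 7 loci for Calu-3 KLF5, 16HBE14o- KLF5 and Calu-3 CEBPB, with the number of peaks above each bar. The HES1 window has a flank of 150 kb and the others 50 kb, so its bars cannot be set against theirs. Calu-3 KLF5 peaks were listed at HES1, LFNG and JAG2, and CEBPB peaks at all 7 loci, up to 16 at JAG2.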

How the data were processed

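The authors deposited 1 peak list per group, each from both samples, per the series' design text. The lists are IDR (irreproducible discovery rate) peaks on hg19, per the file headers. The aligner, peak caller, filters and control library are not given in the sources used here. Per peak the authors deposited a signal of unstated normalization, a score set by the authors and a −log10 q-value, used here without change and only within a list. Depth is unknown.

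Members, loci and the list of genes were chosen with earlier results of these data known. Peaks overlapped when they shared at least 1 bp. Every KLF5 member is named, and those CEBPB peaks that overlap a KLF5 peak or are the highest of a locus. Others named for their place near a KLF5 peak or a gene start were chosen after their values were seen. Tiles run from the first covered base of each chromosome and include the loci themselves. Gene strand, order and promoters are from RefSeq (GRCh38.p14, all 7 genes matched), without its positions on hg19. Other Notch genes were not analysed here, for want of hg19 positions. Overlap, merging and tiling were tested on simulated intervals. Python 3.11.15, numpy 2.4.6, pandas 2.3.3, scipy 1.17.1 and matplotlib 3.10.9 were used. Alternatives varied the window, list filters and overlap rule.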

Additional observations from a re-analysis of the deposited data

How the results depend on the processing

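Of 67 alternative values for 10 results, 49 stayed within 1.5 times the reported count, or within the counting interval for a percentile, and 18 moved. Some could not move. The limit of 1510 is the full Calu-3 KLF5 list, merging left all 69386 CEBPB peaks, and 0 overlaps stay at 0 under stricter filters. The highest HES1 and LFNG percentiles, on which these loci were chosen, do not fall much when weaker peaks are dropped. The 49 is therefore not a measure of stability. With double the flank, the windows held 25 Calu-3 KLF5 peaks, of which 8 overlapped CEBPB, and 9 16HBE14o- KLF5 peaks, of which 1 overlapped CEBPB. With the flank cut by 50%, 1 Calu-3 member overlapped a 16HBE14o- peak, because the JAG2 site fell outside. Restricting each list to signals at or above its median left 1 Calu-3 member with a 16HBE14o- peak, 2 with CEBPB and 32 CEBPB members. A q-value of 0.05 or less left 31 CEBPB members. With all lists limited to 1510 peaks, 3 16HBE14o- KLF5 and 1 CEBPB member remained, and 1 Calu-3 member overlapped each. With summits within 100 bp, 3 Calu-3 members had CEBPB. With a gap of up to 1 kb, 10 did, and 2 16HBE14o- members did. Ranked by q-value, the highest HES1 and LFNG peaks were both at percentile 78.6, because 648 Calu-3 peaks tie at the highest value. A 50 kb flank at HES1, chosen after seeing the data, left 13 Calu-3 KLF5, 5 16HBE14o- KLF5 and 49 CEBPB peaks in all 7 windows together. No paired analysis was possible because each list combines both replicates, and no replicate could be left out for the same reason. The cause of other changes was not tested.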

Other observations

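Tiles of equal width were compared with the HES1 and LFNG windows by their peak numbers in the 3 lists, as the Euclidean distance in log2(number + 1). The tile most like HES1 was its neighbour, chr3:193374257-193677256, with 7 Calu-3 KLF5, 1 16HBE14o- KLF5 and 14 CEBPB peaks (distance 0.59). Next came chr7:962430-1265429, with 9, 2 and 17 peaks in the same order of lists (distance 0.66), and chr8:144417889-144720888, with 8, 2 and 22 (distance 0.89). For LFNG the closest was chr3:193695257-193812256, with 4 Calu-3 KLF5, 0 16HBE14o- KLF5 and 5 CEBPB peaks (distance 0.26). That tile lies upstream of HES1 and holds its distal KLF5 peaks. At the same distance was chr19:872938-989937, with 5, 0 and 4 peaks, and 6 tiles were as close to LFNG as the third.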
